A study of Rattus norvegicus with 12 samples.

Results

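The miRNAs miR-126, miR-143 and miR-145 are products of blood vessel cells, and their levels were followed in the serum exosomes of rats given a compound toxic to the testis. They were chosen by name, as rno-miR-126a-3p, rno-miR-126a-5p, rno-miR-143-3p and rno-miR-145-5p. These are 4 of the 411 mature miRNAs listed in the EGME table and of the 343 listed in the CBZ table, and each table lists all 4. Small RNA from a vesicle pellet of serum was sequenced in 12 libraries, 3 in each of 4 groups, all from male Sprague-Dawley rats of 9 weeks that were bled 24 h after 1 oral dose. EGME rats received ethylene glycol monomethyl ether, a glycol ether solvent, at 2000 mg/kg in water (10 mL/kg), and Water rats received the vehicle. CBZ rats received the compound of that label (400 mg/kg, in 5 mL/kg of corn oil), and Oil rats received that vehicle. Nothing in the labels ties each library to its own animal. The p-values therefore rest on the variation among libraries, which may be partly technical.

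miRNAs are short RNAs that guide repression of messenger RNAs, largely by pairing of their seed, bases 2 to 8 from the 5′ end. miR-126 is made in endothelial cells, the lining of vessels, from within the gene Egfl7, and its 3p arm is known in mouse and zebrafish for sustaining the response to vascular endothelial growth factor by repressing Spred1. Its 5p arm is known in mouse for repressing Dlk1 in endothelial cells. Platelets also hold miR-126. miR-143 and miR-145 are made together in smooth muscle cells, and are known in mouse for keeping vascular smooth muscle in its contractile state. In the RefSeq gene table for the rat (GRCr8) the miR-126 records lie within the span of Egfl7, and Mir143 and Mir145 both lie within that of the long noncoding RNA Carmn.

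The mature sequences show what was counted and how the 4 miRNAs differ. They are given 5′ to 3′ from RefSeq (GRCr8), with the seed in capitals.
miR-126a-3p: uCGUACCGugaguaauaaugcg
miR-126a-5p: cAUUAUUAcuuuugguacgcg
miR-143-3p: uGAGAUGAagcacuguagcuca
miR-145-5p: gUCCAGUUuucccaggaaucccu
The 4 sequences are 21 to 23 bases long and carry 4 different seeds. Of the 436 mature miRNAs that either table lists, 398 matched a RefSeq sequence, and none of the others among these had any of the 4 seeds. No other of the 693 rat mature sequences shared a run of 12 bases with a member. RefSeq files the miR-126a arms under the symbol Mir126b and the antisense miRNA miR-126b under Mir126a. Up to 17 bases in a row of miR-126a-5p are complementary to miR-126b, which was not analysed here.

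The libraries held 196460 to 1235814 assigned counts. Of these, 14.7% to 28.1% fell on mature miRNAs, which gave 155085 to 244141 miRNA counts in the EGME and Water libraries but 51953 to 132148 in the CBZ and Oil libraries. Levels are CPM, the counts scaled to a library's total of mature miRNA counts. Where a miRNA has 0 counts, the upper limit was set at 3 counts, equal to 12.3 to 19.3 CPM in the EGME and Water libraries and 22.7 to 57.7 CPM in the CBZ and Oil libraries. The Oil libraries stood apart from each other: their TMM scaling factors, which correct a total for its makeup, ran from 0.740 to 1.25, against 1.06 to 1.13 in the CBZ libraries. In the EGME and Water libraries these factors ran from 0.954 to 1.08. The tables hold RNA alone, so no vesicle protein marker could be read.

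Both major arms were abundant. miR-143-3p was the most abundant of the 4, with 9075 counts over all libraries, 152 to 1164 per library, and stood 18th to 26th among the miRNAs of a library. miR-126a-3p followed with 5722 counts, 113 to 856 per library, and stood 22nd to 37th. miR-126a-5p, the minor arm, had 208 counts, and miR-145-5p had 27. The other arms of the smooth muscle pair were also rare: miR-145-3p had 23 counts and miR-143-5p had 7.

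**Figure D1:**
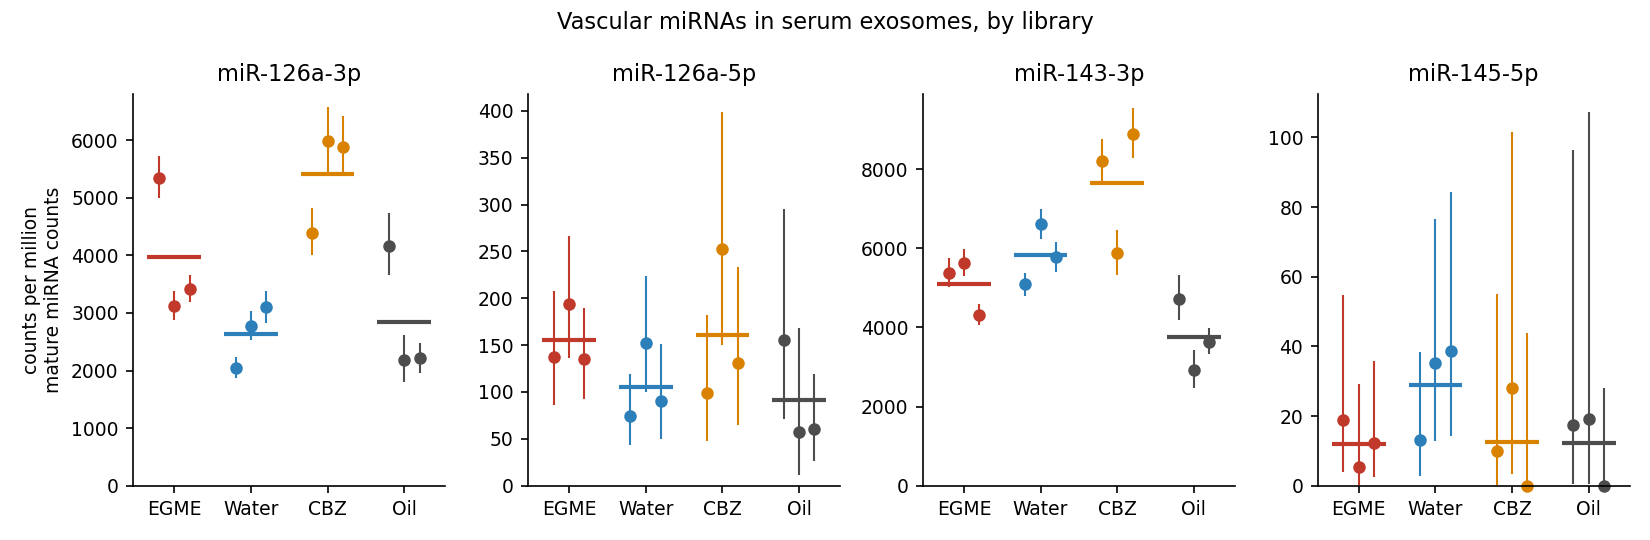
Level of each miRNA in each library, in CPM of mature miRNA counts (linear axes from 0, each panel with its own range), for the EGME, Water, CBZ and Oil groups. Points are libraries, thin bars are exact 95% binomial intervals (counting error only), and thick lines are group means; miR-126a-3p lies higher in all 3 EGME than in all 3 Water libraries and higher in all 3 CBZ than in all 3 Oil libraries, and miR-143-3p does so for CBZ alone. The share of all tested miRNAs that separate in this way was not counted.

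miR-126a-3p had 5350, 3125 and 3420 CPM in the EGME libraries, against 2044, 2775 and 3095 CPM in the Water libraries. It averaged 3965 ± 1209 CPM in EGME and 2638 ± 539 CPM in Water libraries (SD, n = 3 each). The lowest EGME library lay just above the highest Water library, and EGME library 1 stood well above the other two. The 95% counting intervals of these neighbours overlapped, at 2880 to 3385 CPM in EGME library 2 and 2825 to 3384 CPM in Water library 3. In the edgeR fit of all 141 tested miRNAs, the log2 difference was 0.65 (SE 0.260), with an unadjusted p of 0.0144 and an adjusted p of 0.0966, so the difference was not called at the threshold of 0.05. Without EGME library 1 the log2 difference was 0.39, and without EGME library 2 it was 0.82 and passed with an edgeR adjusted p of 0.00854. On CPM of all assigned counts, of every RNA class, the groups overlapped, at 483 to 1406 in EGME and 487 to 559 in Water libraries.

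In the CBZ libraries miR-126a-3p had 4397, 5980 and 5884 CPM, against 4170, 2175 and 2210 CPM in the Oil libraries. Means were 5420 ± 888 CPM in CBZ and 2851 ± 1142 CPM in Oil libraries (SD, n = 3 each). The groups did not overlap, but CBZ library 1 and Oil library 1 lay close together. After TMM scaling, which lowered Oil library 1 and raised the other two, the levels were 4138 to 5325 CPM in CBZ and 2716 to 3333 CPM in Oil libraries. The fitted log2 difference was 0.71 (SE 0.237, edgeR adjusted p = 0.0360), so miR-126a-3p rose with CBZ, in 3 of 3 libraries. On CPM of all assigned counts the levels were 1004 to 1222 in CBZ and 488 to 614 in Oil libraries, again without overlap. The scales share the same counts, and the share of all tested miRNAs without overlap was not counted. The call was kept in 3 of 14 alternatives, 1 of them the fit without Oil library 2 (edgeR adjusted p = 0.0472). Leaving out any other single library raised the adjusted p above 0.05.

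The smooth muscle miRNA miR-143-3p had 5381, 5622 and 4313 CPM in the EGME libraries, against 5084, 6600 and 5771 CPM in the Water libraries. The 2 groups overlapped, and their means were 5105 ± 697 CPM in EGME and 5818 ± 759 CPM in Water libraries (SD, n = 3 each). The log2 difference of -0.13 (SE 0.252, edgeR adjusted p = 0.772) lay within 1 SE of 0.

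Under CBZ the levels of miR-143-3p were 8191, 5867 and 8897 CPM, against 4723, 2926 and 3640 CPM under Oil. Every CBZ library lay above every Oil library, on the CPM scale, after TMM scaling and on CPM of all assigned counts. These scales rescale the same counts and are not separate evidence. The share of all tested miRNAs that separate in this way was not counted. The means of 7652 ± 1585 CPM in CBZ and 3763 ± 905 CPM in Oil libraries (SD, n = 3 each) differed 2.03-fold, and those after TMM scaling, 6983 and 4068 CPM, differed 1.72-fold. miR-143-3p rose with CBZ, with a log2 difference of 0.78 (SE 0.229, edgeR adjusted p = 0.0215). By p it ranked 7th of the 115 tested miRNAs, and miR-126a-3p ranked 13th. The call was kept without Oil library 2 and without Oil library 3, and lost without Oil library 1 (edgeR adjusted p = 0.166) and without any single CBZ library (edgeR adjusted p = 0.119 to 0.155).

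The minor arm miR-126a-5p had 22, 37 and 33 counts in the EGME libraries, against 17, 26 and 14 in the Water libraries. These are 138, 194 and 135 CPM in EGME and 74.3, 153 and 90.3 CPM in Water libraries, and the groups overlapped on this scale. They did not on CPM of all assigned counts (29.9 to 38.0 in EGME and 16.3 to 26.8 in Water libraries). The share of all features without overlap on that scale was not counted. In the fit of all RNA classes miR-126a-5p was not called for EGME (edgeR adjusted p = 0.259). It had 10, 18 and 11 counts in the CBZ libraries, against 9, 3 and 8 in the Oil libraries. At 98.8, 253 and 130 CPM in CBZ and 156, 57.7 and 60.5 CPM in Oil libraries, the groups overlapped too. The log2 differences were 0.63 (SE 0.432, edgeR adjusted p = 0.374) for EGME and 0.61 (SE 0.577, edgeR adjusted p = 0.537) for CBZ. Neither difference was detectable at this depth. For CBZ the value was 0.11 without CBZ library 2, 0.86 without CBZ library 1 and 0.23 with upper quartile scaling.

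miR-145-5p was near the limit of detection. Its counts were 3, 1 and 3 in the EGME libraries, against 3, 6 and 6 in the Water libraries, and 1, 2 and 0 in the CBZ libraries, against 1, 1 and 0 in the Oil libraries. Summed over a group, this is 11.8 CPM (exact Poisson 95% interval 4.73 to 24.2) in EGME and 27.1 CPM (15.1 to 44.6) in Water libraries. In the same way it is 11.7 CPM (2.41 to 34.1) in CBZ and 8.27 CPM (1.00 to 29.9) in Oil libraries. The intervals, which cover counting error only, overlap in both pairs. miR-145-5p did not pass the filter on low counts in either comparison, so it has no test.

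Of the 4 miRNAs, 3 were therefore tested in each comparison. None of them was called for EGME, where 13 of 141 tested miRNAs (9.22%) were called, 8 of them higher (5.67%) and 5 lower (3.55%), and 33 had an unadjusted p under 0.05. For CBZ, 2 of the 3 were called higher, where 13 of 115 (11.3%) were called in either direction, 9 (7.83%) higher and 4 (3.48%) lower. The split by direction depended on the scaling: upper quartile scaling called 1 higher and 13 lower for CBZ, totals alone 3 higher and 0 lower, and DESeq2 size factors 7 higher and 5 lower. For EGME totals alone called 3 higher and 5 lower. Without the filter CBZ had 3 higher and 11 lower, and without Oil library 1 it had 3 higher and 8 lower. The median log2 difference of all tested miRNAs was -0.075 for EGME and 0.026 for CBZ. Upper quartile scaling moved the CBZ median to -0.35, and the use of totals alone moved it to 0.23. Measured from the median under each of TMM, DESeq2 size factors, upper quartile scaling and totals alone, the CBZ log2 difference was 0.68 to 0.70 for miR-126a-3p and 0.75 to 0.79 for miR-143-3p. A change of scaling shifts all miRNAs by nearly the same amount, so this closeness was largely fixed in advance. It is no test of the calls, which upper quartile scaling and totals alone lost for both.

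**Figure D2:**
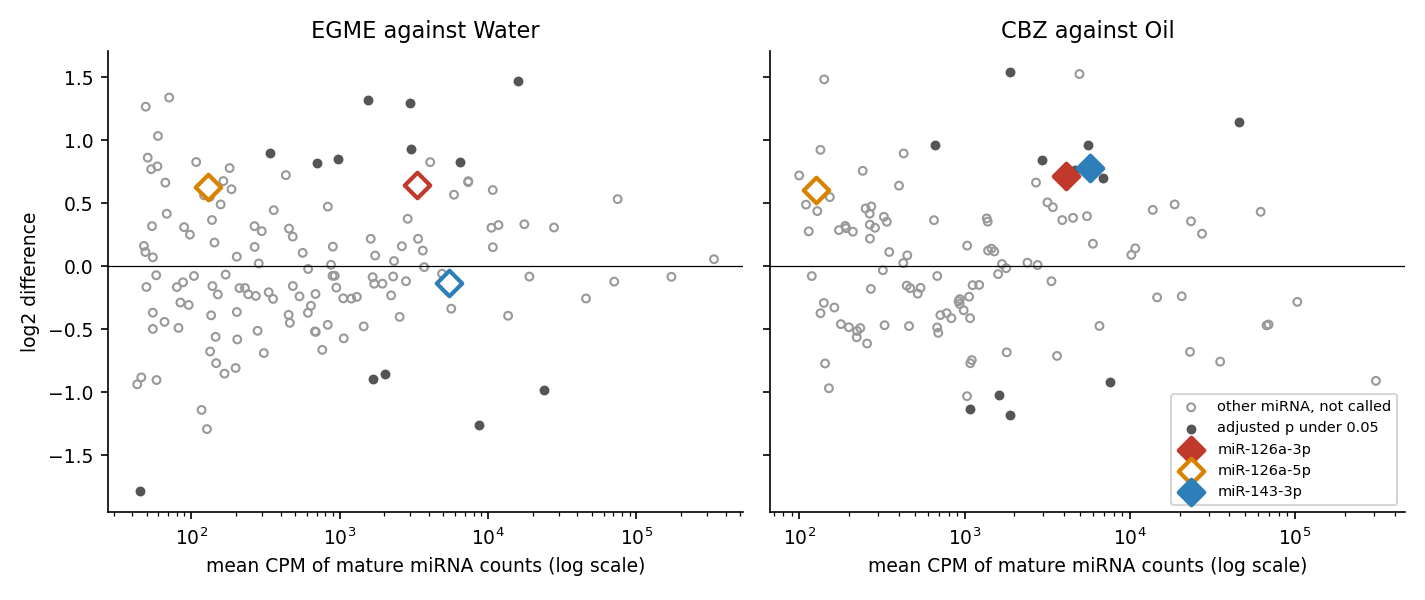
Log2 difference of each tested miRNA (TMM-scaled edgeR fit) against its mean level in CPM (log axis), for EGME against Water (141 miRNAs, left) and CBZ against Oil (115 miRNAs, right). Filled symbols have an adjusted p under 0.05 and diamonds are the members, whose legend fill is that of the right panel; miR-126a-3p and miR-143-3p lie together at 0.71 and 0.78 for CBZ, and apart at 0.65 and -0.13 for EGME.

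Whether a miRNA responded unlike to the 2 compounds was tested as the EGME difference minus the CBZ difference, in 1 fit of all 12 libraries. For miR-143-3p this was -0.92 (SE 0.351), with an unadjusted p of 0.0135 and an edgeR adjusted p of 0.270. It lay between -1.21 and -0.69 in the 19 alternatives. For miR-126a-3p it was -0.10 (SE 0.367, edgeR adjusted p = 0.925), and for miR-126a-5p 0.027 (SE 0.712, edgeR adjusted p = 0.987). None of the 146 miRNAs tested (0%) was called by edgeR, 16 had an unadjusted p under 0.05, and the DESeq2 Wald test called 1. A difference in response between the compounds was thus not shown for any of the 3.

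**Figure D3:**
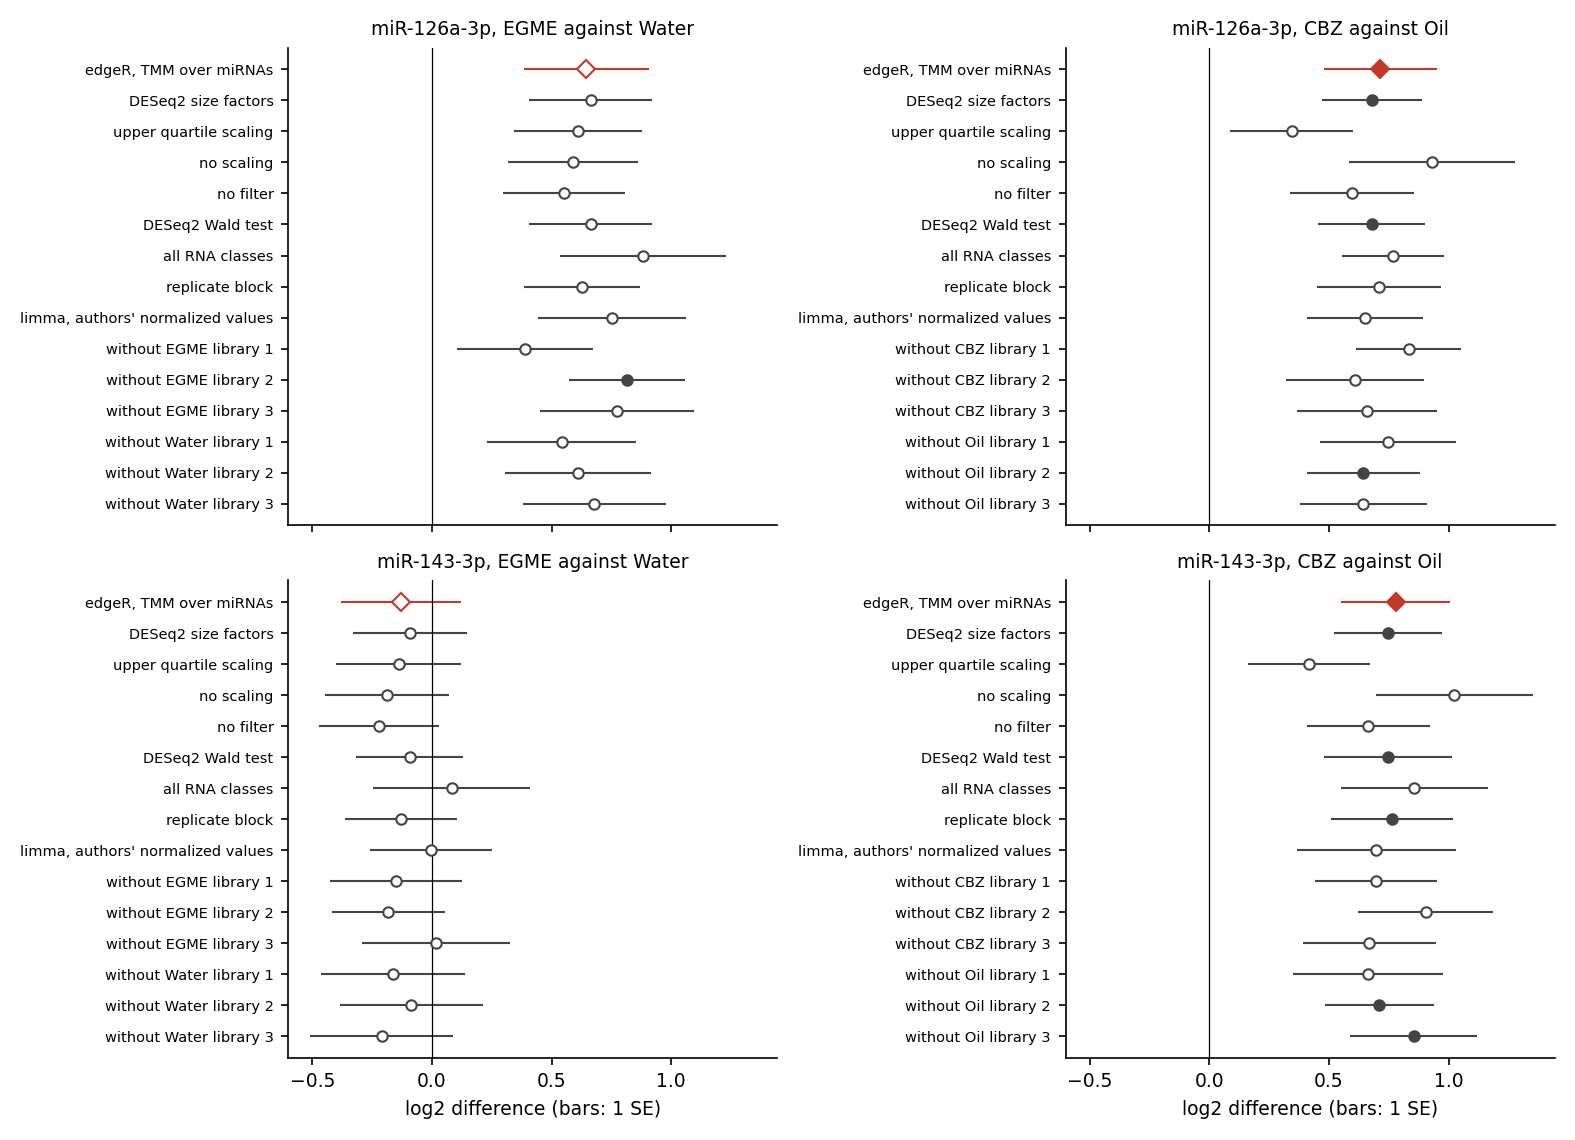
Log2 difference of miR-126a-3p (top) and miR-143-3p (bottom) for EGME against Water (left) and CBZ against Oil (right), under the edgeR fit reported (diamond) and each alternative (circles). Bars are 1 SE and filled symbols have an adjusted p under 0.05; for CBZ every estimate lies above 0, from 0.34 to 0.93 for miR-126a-3p and from 0.42 to 1.02 for miR-143-3p, but most are open.

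Across the 4 groups, miR-126a-3p was highest in CBZ, then EGME, Oil and Water. miR-126a-5p followed the order CBZ, EGME, Water and Oil, and miR-143-3p the order CBZ, Water, EGME and Oil. For each of the 3, the ranges of every pair of neighbours in the order overlapped. The 2 tables were made separately, so levels set across them are descriptions.

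Ratios of the counts of 2 miRNAs within a library do not depend on scaling. The log2 ratios tested had 0.5 added to each count, which matters where counts are few. There were 24.9 counts of miR-126a-3p for each count of the 5p arm in EGME libraries (exact 95% interval 20.2 to 31.0) and 24.9 in Water libraries (19.1 to 33.1), all libraries of a group pooled. The same ratio was 35.1 in CBZ (25.5 to 49.5) and 32.3 in Oil libraries (20.7 to 53.2). The intervals of these pooled ratios, and of those below, cover counting error only and leave out variation between libraries. Single EGME libraries gave 38.9, 16.1 and 25.3. The log2 arm ratio differed by -0.022 for EGME and 0.19 for CBZ (two-sided exact permutation p = 1 and 0.6). For CBZ it ran from 0.036 without CBZ library 3 to 0.49 without CBZ library 2. Counts of miR-143-3p exceeded those of its cluster partner miR-145-5p 427-fold in EGME (207 to 1063) and 212-fold in Water libraries (129 to 380). Pooled CBZ libraries gave 666-fold (227 to 3231), resting on 3 counts of miR-145-5p, and Oil libraries 453-fold (125 to 3746), resting on 2. The log2 differences of this ratio were 0.91 for EGME and 0.99 for CBZ (two-sided exact permutation p = 0.3 and 0.6). Single libraries moved them, to 0.45 without EGME library 2 for EGME, and for CBZ to 0.22 without CBZ library 3, 0.31 without Oil library 2, 1.80 without CBZ library 2 and 1.93 without Oil library 3. With 1 added to each count the differences were 0.78 for EGME and 1.04 for CBZ. CBZ library 3 and Oil library 3 had 0 counts of miR-145-5p, so their ratios rest on the added 0.5.

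The smooth muscle to endothelial ratio, miR-143-3p to miR-126a-3p, was added after the data were seen. Its log2 value was 0.0084, 0.85 and 0.33 in the EGME libraries, against 1.31, 1.25 and 0.90 in the Water libraries. Every EGME library lay below every Water library, with means of 0.40 ± 0.42 in EGME and 1.15 ± 0.22 in Water (SD, n = 3 each). The log2 difference of -0.76 had a two-sided exact permutation p of 0.1, the smallest that 3 libraries against 3 can give, and a Benjamini-Hochberg value of 0.333 over the 10 ratio tests. In the CBZ libraries the log2 ratio averaged 0.49 ± 0.47, against 0.44 ± 0.27 in Oil libraries (exact permutation p = 1). CBZ and Oil libraries overlapped in this ratio.

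**Figure D4:**
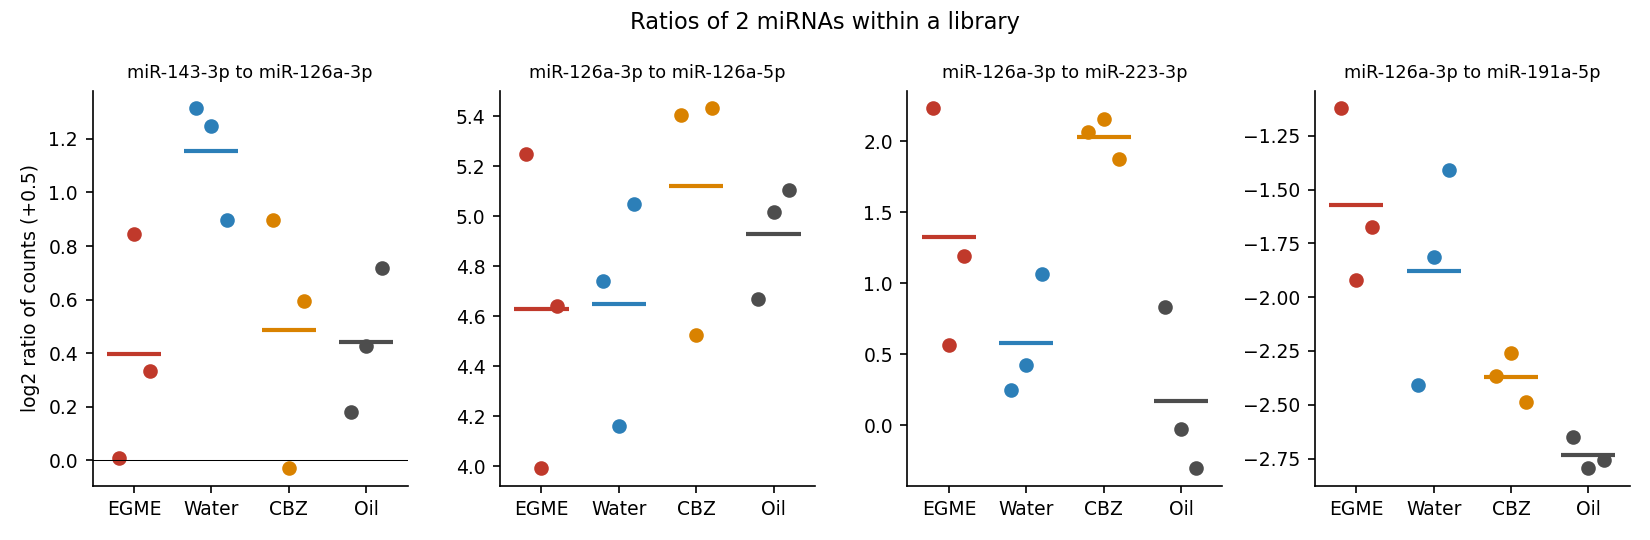
Log2 ratios of the counts of 2 miRNAs in each library (0.5 added to each count; axes do not start at 0), for the EGME, Water, CBZ and Oil groups, with lines at group means. In the left panel the 3 EGME libraries (0.0084 to 0.85) lie below the 3 Water libraries (0.90 to 1.31), and the CBZ and Oil libraries overlap.

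A chosen list of 16 other miRNAs known from vessel wall cells held none that was called, but few were tested. Of these 16 names, 7 were tested in each comparison and 0 were called in either. The list is not a full set of vascular miRNAs, so this says nothing of miRNAs outside it. Over all tested miRNAs 9.22% were called for EGME and 11.3% for CBZ, so 0 of 7 is near that share. For EGME 3 were higher and 4 lower (median log2 difference -0.14, against -0.075 over all tested), with miR-199a-3p, a miRNA of fibroblasts and smooth muscle, at -0.77 (edgeR adjusted p = 0.275) for EGME and 0.30 (edgeR adjusted p = 0.702) for CBZ. For CBZ 5 were higher and 2 lower (median 0.43, against 0.026 over all tested), and with upper quartile scaling 4 were higher and 3 lower (median 0.059, against -0.35). On this list miR-26a-5p made up most of the summed level, which is therefore largely the level of 1 miRNA. It averaged 74149 CPM in CBZ and 49737 CPM in Oil libraries, a log2 difference of 0.43 (edgeR adjusted p = 0.359). Its means were 30333 CPM in EGME and 25306 CPM in Water libraries, a log2 difference of 0.31 (edgeR adjusted p = 0.434). miR-99a-5p averaged 3956 CPM in CBZ and 2389 CPM in Oil libraries, a log2 difference of 0.51 (edgeR adjusted p = 0.178), and 1580 CPM in EGME and 1840 CPM in Water libraries (-0.14, edgeR adjusted p = 0.772). miR-29a-3p, which represses collagen genes, averaged 548 CPM in EGME and 815 CPM in Water libraries (log2 difference -0.52, edgeR adjusted p = 0.208), and 1085 CPM in CBZ and 1044 CPM in Oil libraries (-0.24, edgeR adjusted p = 0.573). The summed level of the list was 22157 to 43002 CPM in EGME and 27655 to 30562 CPM in Water libraries, and 75082 to 87732 CPM in CBZ and 33511 to 91782 CPM in Oil libraries. Neither miR-322-5p nor miR-204-5p was analysed for CBZ.

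Blood cells also release miRNAs into serum, and some of their markers moved in the same comparisons. Over all miRNAs tested for CBZ, 13 of 115 (11.3%) were called. Among 9 platelet names, 7 were tested for CBZ, 4 higher and 3 lower (median 0.16, against 0.026 over all tested), or 1 higher and 6 lower with upper quartile scaling. Of these miR-24-3p rose (log2 difference 0.70, edgeR adjusted p = 0.0299) and miR-223-3p, a miRNA of platelets and myeloid cells, fell (-1.18, edgeR adjusted p = 0.00168). The summed platelet level was 62753 to 74916 CPM in CBZ and 46039 to 61125 CPM in Oil libraries, and the groups overlapped after TMM scaling (58092 to 67798 CPM in CBZ and 48857 to 74171 CPM in Oil libraries). All 7 tested red blood cell miRNAs were lower in CBZ under each of the 4 scalings (median -0.56 with TMM, against 0.026 over all tested), and 2 passed: miR-451-5p (-0.92, edgeR adjusted p = 0.00397), which is abundant in red cells, and miR-185-5p (-1.03, edgeR adjusted p = 0.00397). The red cell sum was 63662 to 78102 CPM in CBZ and 68831 to 121228 CPM in Oil libraries. After TMM scaling it was 59915 to 69065 CPM in CBZ and 87804 to 96898 CPM in Oil libraries, without overlap. The share of all tested miRNAs without overlap was not counted. Most of this sum was miR-486, which averaged 61530 CPM in CBZ and 73011 CPM in Oil libraries and was not called (-0.47, edgeR adjusted p = 0.327). Without CBZ library 1 or CBZ library 2 none of these 4 calls was kept, and that of miR-185-5p was also lost without CBZ library 3 (edgeR adjusted p = 0.0525). The call of miR-24-3p was kept in 2 of 14 alternatives, the fit without Oil library 3 and the DESeq2 Wald test. Those of miR-451-5p and miR-223-3p were each kept in 9 of 14, and that of miR-185-5p in 8 of 14. Totals alone, all RNA classes and limma each lost all 4 calls. With totals alone the edgeR adjusted p was 0.250 for miR-451-5p, 0.143 for miR-185-5p and 0.111 for miR-223-3p. The part of platelet and red cell RNA in the CBZ results was not tested.

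For EGME, none of the 8 tested platelet and 7 tested red cell miRNAs was called by edgeR, against 13 of 141 (9.22%) over all tested. Platelet miRNAs summed to 37719 to 47374 CPM in EGME and 36819 to 43723 CPM in Water libraries, and red cell miRNAs to 81330 to 111580 CPM in EGME and 65331 to 93259 CPM in Water libraries. Of the platelet miRNAs 5 were higher and 3 lower (median 0.19, against -0.075 over all tested). Of the red cell miRNAs 1 was higher and 6 lower (median -0.25). The higher one, miR-486, made up most of the red cell sum, at 86658 CPM in EGME and 62669 CPM in Water libraries (0.53, edgeR adjusted p = 0.0929). Of 5 tested white cell miRNAs, miR-150-5p, a lymphocyte miRNA, fell (-0.86, edgeR adjusted p = 0.0228), a call lost without Water library 1, EGME library 1 or EGME library 3 (edgeR adjusted p = 0.104 to 0.327). It was also lost with DESeq2 size factors (edgeR adjusted p = 0.0572), all RNA classes (edgeR adjusted p = 0.319) and limma (limma adjusted p = 0.317), so in 6 of 14 alternatives. The white cell sum was 2945 to 3790 CPM in EGME and 4923 to 5210 CPM in Water libraries. In the CBZ comparison none of 4 tested was called, and the white cell sum was 4081 to 5615 CPM in CBZ and 3246 to 6436 CPM in Oil libraries. Striated muscle miRNAs were low, with a sum of 168 to 283 CPM in EGME and 83.0 to 316 CPM in Water libraries, and of 253 to 629 CPM in CBZ and 156 to 500 CPM in Oil libraries. miR-208a-3p, of heart muscle, was not analysed here. More vesicles from a cell type and more of a miRNA in each vesicle cannot be told apart in these bulk libraries.

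The miRNAs with the most similar pattern were found by the root mean square (RMS) difference of log2(CPM + 1), each centred on its table's mean, over the 12 libraries and 108 candidates of at least 100 CPM on average, the 4 members left out. miR-126a-3p was nearest to miR-92a-3p (RMS difference 0.217), miR-423-3p (0.222) and miR-99b-5p (0.258), where its own RMS deviation about the table means was 0.514. miR-143-3p was nearest to miR-146b-5p (0.239), miR-532-5p (0.263) and miR-378a-3p (0.269), with an own deviation of 0.432. None of these 6 was called in either comparison. For CBZ all 6 were higher, from 0.37 for miR-378a-3p to 0.90 for miR-99b-5p. There miR-99b-5p (edgeR adjusted p = 0.0541) and miR-423-3p (0.67, edgeR adjusted p = 0.0583) missed the threshold. The 6 were chosen for closeness to the members over these same libraries. Their shared direction for CBZ was therefore largely fixed by the choice, and is no support for the calls of the members. For EGME the 6 ran from -0.37 for miR-378a-3p to 0.72 for miR-99b-5p (edgeR adjusted p = 0.376 and 0.0684). miR-126a-5p was nearest to miR-146a-5p (0.363), miR-146b-5p (0.407) and miR-191a-5p (0.418). For miR-145-5p the nearest were miR-148a-5p (1.23), miR-181b-5p (1.35) and miR-144-3p (1.37), and its counts are too few to read a pattern.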

How the data were processed

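Small RNA libraries of serum exosome pellets were assigned to groups by their titles. The authors deposited raw counts of reads per feature for each toxicant with its vehicle, and a normalized signal that the file names call normalized counts, which equals the raw counts times 1 constant per library. edgeR was used per the submitters' processing notes; the aligner, the build and the handling of multiply matching reads are not given in the sources, so no coordinates are printed. Mature miRNA counts, 51953 to 244141 per library, were tested with edgeR 4.0.16 (R 4.3.3; robust quasi-likelihood, TMM over mature miRNAs, filterByExpr minimum count 10, Benjamini-Hochberg over all tested miRNAs, threshold 0.05). SE is the log2 difference over the root of F. Ratios of counts plus 0.5 were tested by exact permutation (SciPy 1.17.1). Intervals are at the 95% level and, like the floor of 3 counts, cover counting error only, since the libraries carry no molecular identifiers. Any 2 libraries of a group differed by a chi-square of at least 12.1 per degree of freedom, so none was counted as 1 library deposited a second time; this does not show that each came from another rat. Alternatives used DESeq2 1.42.0, limma 3.58.1 on log2 of the authors' normalized signal plus 1, other scalings, no filter, all RNA classes, a replicate block and single libraries left out; those for blood cell miRNAs were added after seeing the data. The members, the lists and the rule for named miRNAs (the members, the other arms of miR-143 and miR-145, the 3 nearest in pattern, and of the other vascular list the called and the 3 most abundant) were chosen with earlier results of these data known. Outside that rule, miR-199a-3p and the blood cell and heart miRNAs named were chosen after their values were seen.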

Additional observations from a re-analysis of the deposited data

How the results depend on the processing

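Counts of called miRNAs depended on the setting. For EGME (13 called), DESeq2 size factors gave 6, totals alone 8 and limma 0 of 235 (35 at unadjusted p under 0.05, limma). All RNA classes in 1 fit gave 0 of 330 features, of which 136 were miRNAs (59 features at unadjusted p under 0.05, edgeR). Leaving out 1 library gave 3 to 19, of which EGME library 1 left out gave 3, EGME library 3 gave 6 and Water library 2 gave 7. For CBZ (13 called), totals alone gave 3 and limma 0 of 185 (23 unadjusted). All RNA classes gave 0 of 244 features, of which 111 were miRNAs (64 features unadjusted, edgeR). Leaving out 1 library gave 0 to 19. That 0 came without CBZ library 1 (23 unadjusted, edgeR) and without CBZ library 2 (18 unadjusted), and 7 were called without CBZ library 3. For the difference between the compounds (0 called), no filter, the DESeq2 Wald test and the replicate block each gave 1, and leaving out 1 library 0 to 7, the 7 without Oil library 1.

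In CBZ the log2 difference of miR-126a-3p (0.71) missed the threshold with upper quartile scaling (0.34), totals alone (0.93), no filter (0.60), all RNA classes (0.77), the replicate block (0.71, edgeR adjusted p = 0.0522) and limma (0.65), and ranged from 0.61 to 0.83 with 1 library left out. That of miR-143-3p (0.78) missed it with upper quartile scaling (0.42), totals alone (1.02), no filter (0.66), all RNA classes (0.86) and limma (0.70), and ranged from 0.66 to 0.90. Over the alternatives the adjusted p ran from 0.0235 to 0.321 for miR-126a-3p and from 0.0183 to 0.372 for miR-143-3p; DESeq2 size factors and the Wald test kept both calls. Fitting all RNA classes tests more features; the other causes were not tested.

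In EGME, miR-126a-3p ranged from 0.39 to 0.82 with 1 library left out, and miR-143-3p from -0.21 to 0.017, reaching 0.082 with all RNA classes. Between the compounds, miR-126a-3p turned to 0.22 with all RNA classes (-0.29 to 0.10 with 1 library left out), and miR-126a-5p to -0.00070 with upper quartile scaling and -0.28 with totals alone (-0.27 to 0.43). With 1 library left out, the log2 arm ratio of miR-126a ranged from -0.33 to 0.29 for EGME, and that of miR-143-3p to miR-126a-3p from -0.16 to 0.30 for CBZ. Equal library numbers did not mark pairs: their deviations correlated at 0.12, 0.24 and -0.011 for EGME and Water, and at 0.088, -0.17 and 0.042 for CBZ and Oil. Depth limits miR-126a-5p and miR-145-5p, whose counts reach 37 and 6 at most.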

Other observations

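Ratios of miR-126a-3p to miRNAs that platelets hold were added after the data were seen. The log2 ratio of miR-126a-3p to miR-223-3p was 1.87 to 2.16 in CBZ and -0.30 to 0.83 in Oil libraries, a difference of 1.86, and 0.56 to 2.23 in EGME and 0.25 to 1.07 in Water libraries, a difference of 0.75. The log2 ratio of miR-126a-3p to miR-191a-5p was -2.49 to -2.26 in CBZ and -2.79 to -2.65 in Oil libraries, a difference of 0.36, and -1.92 to -1.12 in EGME and -2.41 to -1.41 in Water libraries, a difference of 0.30. Neither ratio overlapped between CBZ and Oil. In that comparison miR-126a-3p had already been called higher and miR-223-3p lower. The separation of their ratio therefore restates those calls and is no further support for them. The two-sided exact permutation p was 0.1 for both in CBZ, the smallest that 3 libraries against 3 can give, and 0.333 after Benjamini-Hochberg adjustment over the 10 ratio tests. For EGME the exact permutation p was 0.2 for miR-223-3p and 0.5 for miR-191a-5p. The EGME difference to miR-223-3p was 0.30 without EGME library 1 and 1.13 without EGME library 2. That to miR-191a-5p was 0.039 with Water library 1 left out, 0.080 with EGME library 1 left out, 0.48 with EGME library 2 left out and 0.54 with Water library 3 left out.

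miR-145-3p, the other arm of the miR-145 hairpin, had 8 counts in EGME and 2 in Water libraries, where miR-145-5p had 7 in EGME and 15 in Water libraries. In the other comparison miR-145-3p had 6 counts in CBZ and 7 in Oil libraries, where miR-145-5p had 3 in CBZ and 2 in Oil libraries. These counts are too few for a test.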
